A study of Ovis aries with 6 samples.

Results

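MMP2 and ITGB1, a matrix protease and a matrix receptor, were compared between body side skin, which bears wool, and groin skin, which does not, in Aohan fine wool sheep. The 2 genes were taken from the array by name. They were chosen with earlier results of these data known. The study had already reported both genes as less expressed in body side skin on the same arrays. Its qPCR on the same RNA gave the same direction for both. It also found MMP2 changed at only 1 of 3 probes and stated that confidence in this gene might be lower. The direction of both genes was thus known in advance, and the calls and p-values below are no independent evidence for it. MMP2 was read by 3 probes and ITGB1 by 1 probe, so that 4 of the 15008 distinct probes of the array belong to them, and they are 2 of the 476 genes that could be named through the RefSeq gene table. There were 3 arrays of body side skin and 3 of groin skin, each hybridized with Cy3-labelled cRNA from whole skin of sheep aged 16 months. The animals were 1 ram and 2 ewes with a common father, kept in pens, and both areas were cut from each of them in December. The labels do not say which arrays share an animal, so the p-values below measure only the spread between arrays.

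MMP2 encodes gelatinase A, a secreted enzyme that cleaves denatured collagen and the type IV collagen of basement membranes. It is released as an inactive proenzyme, mainly by fibroblasts and other stromal cells, and is activated at the cell surface by the membrane protease MMP14, while the TIMP proteins inhibit it. ITGB1 encodes the integrin beta-1 chain, which pairs with many alpha chains to form receptors for collagens, laminins and fibronectin. In skin it anchors the basal keratinocytes of the epidermis and of the hair follicle to the basement membrane, and fibroblasts use it to hold the dermal matrix. In whole skin, fewer cells of a type and less RNA per cell cannot be told apart.

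Each spot has a processed signal from the scanner software, as deposited by the authors. Between 79.6% and 92.3% of spots were well above background on a groin array and between 74.1% and 76.0% on a body side array, with median signals of 180 to 193 and of 97.5 to 130. No spot was saturated, and no spot of either gene was marked as an outlier. Body side replicate 1 stood nearer to the groin arrays than the other two body side arrays did. Of 10397 probes well above background on all 6 arrays, its value was the closest of the 3 body side values to the groin mean in 62.7%, against 19.1% for replicate 2 and 18.3% for replicate 3. Below, differences are body side minus groin on quantile normalized log2 intensities, with limma as the test. To be called, a probe needed a Benjamini-Hochberg adjusted p under 0.05 together with a fold of 2 or more. Of 13929 probes tested, 1170 were called, which is 8.4%.

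The ITGB1 level was lower in body side skin. Its probe, A_70_P026041, had processed signals of 1548, 1925 and 1812 on groin replicates 1, 2 and 3, and of 611, 342 and 478 on body side replicates 1, 2 and 3. The groups did not overlap, and the brightest body side array lay well below the dimmest groin array. The raw spots showed the same order, at 39.6 to 54.3 times their local background in groin skin and 9.97 to 15.4 times in body side skin. On the normalized log2 scale the level was 9.16 ± 0.27 in body side skin and 10.61 ± 0.16 in groin skin (SD, n = 3 each). The log2 difference was -1.45 with SE 0.19 (95% interval -1.93 to -0.98, limma adjusted p = 0.018), a level 2.74-fold lower in body side skin with an interval of 1.97 to 3.81.

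The ITGB1 probe was thus among the 679 probes called as lower, 4.87% of those tested, and 5.26% of tested probes had a difference as low or lower. Its rank among all probes of an array fell from between the 77.8th and 80.4th percentiles on the groin arrays to between the 64.8th and 69.7th in body side skin. The spread between body side arrays was 0.27, beside a median of 0.29 over all tested probes. The call depended on single arrays. It was kept without groin replicate 1 (limma adjusted p = 0.031) and without body side replicate 1 (0.0039), and it was lost without groin replicate 2 (0.097), groin replicate 3 (0.098), body side replicate 2 (0.083) or body side replicate 3 (0.081), although the difference stayed between -1.59 and -1.31. The fits that lost it called few probes of any gene, at 14, 11, 45 and 64 in the same order, in place of 1170. The loss is thus not particular to ITGB1.

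**Figure D1:**
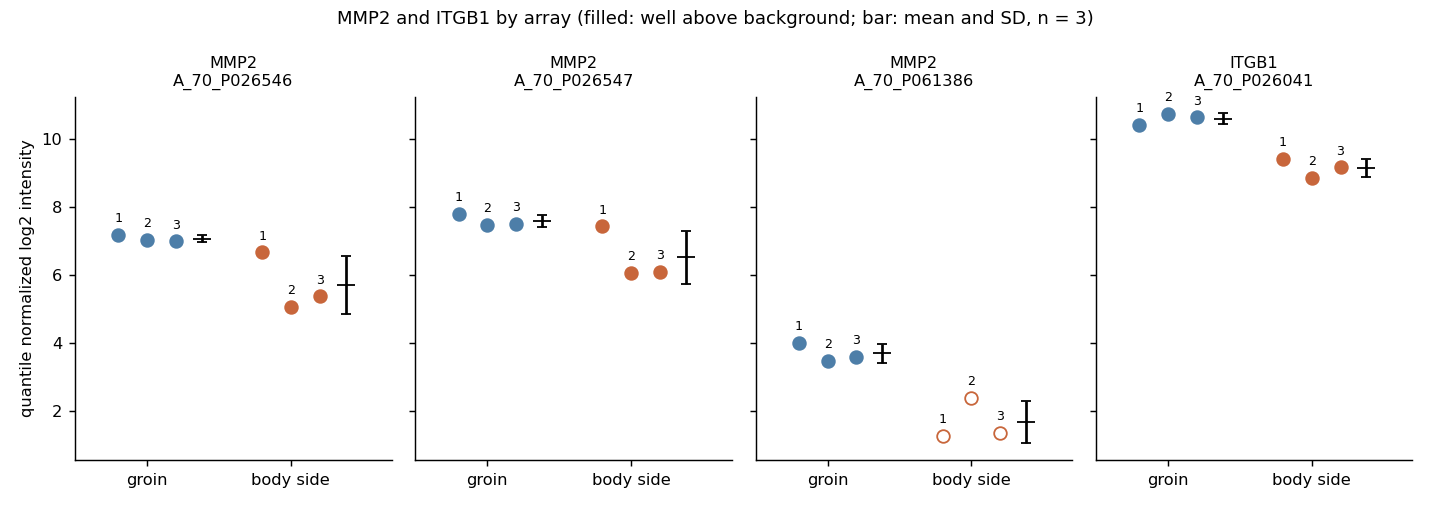
Quantile normalized log2 intensity of the 3 MMP2 probes and the ITGB1 probe on each groin and body side array, numbered by replicate, with filled points for spots well above background and a bar for the mean and SD (n = 3). ITGB1 separates the areas with a small spread, body side replicate 1 lies near the groin arrays at the MMP2 probes A_70_P026546 and A_70_P026547, and A_70_P061386 has only open points in body side skin.

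The 3 MMP2 probes were each lower on all body side arrays than on all groin arrays, but they did not give one answer on the size or the call. The probe A_70_P026546 had processed signals of 184, 181 and 170 on groin replicates 1, 2 and 3. On body side replicates 1, 2 and 3 it had 92.1, 21.3 and 30.8. All 6 spots were well above background, the groin arrays were alike, and body side replicate 1 was the brightest of the body side arrays by far. The probe A_70_P026547 had signals of 275, 242 and 242 in groin skin and of 156, 43.0 and 51.3 in body side skin, with the same order among the arrays.

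On the normalized log2 scale A_70_P026546 was at 7.08 ± 0.097 in groin skin and 5.71 ± 0.85 in body side skin (SD, n = 3 each). Its log2 difference was -1.37 with SE 0.42 (95% interval -2.39 to -0.35), and with a limma adjusted p of 0.072 it was not called. A_70_P026547 was at 7.60 ± 0.17 in groin skin and 6.53 ± 0.78 in body side skin. Its log2 difference was -1.07 with SE 0.39 (95% interval -2.03 to -0.11), and with a limma adjusted p of 0.11 it was not called either. The fitted folds were 2.59 and 2.10 lower in body side skin, with intervals of 1.28 to 5.24 and 1.08 to 4.07. With normexp background correction the log2 differences were -0.68 and -0.73, which are folds of 1.60 and 1.66. ITGB1 was then at -1.32, a fold of 2.50. That correction adds an offset of 50 to every corrected intensity, which shrinks differences more at dim probes than at bright ones. These folds are therefore not compared between the genes. The body side spread of these probes stood at the 90.3rd and 88.1st percentiles of all tested probes, whereas their groin spread stood at the 22.6th and 42.9th.

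Most of that spread came from 1 array. Against the groin mean, A_70_P026546 was at -0.40 on body side replicate 1, -2.01 on replicate 2 and -1.70 on replicate 3, and A_70_P026547 was at -0.17, -1.53 and -1.51. ITGB1, in contrast, was at -1.19, -1.74 and -1.43 on the same arrays. Without body side replicate 1, both MMP2 probes were called, with log2 differences of -1.85 and -1.52 (limma adjusted p = 0.0025 and 0.0033). Dropping that array raised the count of all called probes from 1170 to 2959 as well, and dropping any other array left both probes uncalled.

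The probe A_70_P061386 was the one MMP2 probe that was called, and it was the dimmest. Its processed signals were 30.2, 13.3 and 13.5 in groin skin and 2.61, 2.90 and 2.70 in body side skin. All 3 of its groin spots were well above background, and 0 of its 3 body side spots were. The limma log2 difference was -2.03 with SE 0.34 (adjusted p = 0.024), but it is a difference from values that were not measured above background. The groin mean of 3.69 ± 0.28 (SD, n = 3) lay below the lowest level at which any probe was well above background in body side skin, which was 3.85 to 4.07. No fold is therefore given for it.

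The raw spots of A_70_P061386 did not separate the areas. They stood at 2.73, 1.74 and 1.78 times their local background on groin replicates 1, 2 and 3, and at 1.49, 1.81 and 1.87 times on body side replicates 1, 2 and 3. With normexp background correction, which starts from those spot values, its log2 difference was -0.22 and its limma adjusted p 0.19. The offset of 50 in that correction exceeds every processed signal of this probe and shrinks its difference. The small value therefore does not show that the difference is absent. The call was also lost without any 1 of the groin arrays (limma adjusted p = 0.052, 0.098 and 0.10 without replicates 1, 2 and 3) or without body side replicate 3 (0.10). In the same order, these fits called 809, 14, 11 and 64 probes in all.

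Agreement between the MMP2 probes was examined as the difference between probes on each array, so that the array's own level drops out. A_70_P026546 minus A_70_P026547 was -0.62, -0.44 and -0.52 in groin skin and -0.76, -1.002 and -0.72 in body side skin. The groups did not overlap, and the means differed by -0.30, which gave an exact two-sided permutation p of 0.1, the smallest that 3 arrays against 3 allow, and 0.3 after adjustment over the 3 probe pairs. Over the 6 arrays this pair had a Pearson's r of 0.99, which describes 6 arrays in 2 areas that both probes share. With normexp background correction the means of this pair differed by 0.051. The pairs with A_70_P061386 count in the adjustment, but no agreement is read from them, since its body side spots were not measured above background.

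The mean of the 2 MMP2 probes measured on every array was 7.49, 7.27 and 7.26 in groin skin and 7.05, 5.57 and 5.73 in body side skin. The groups did not overlap, with body side replicate 1 just below the groin arrays. The difference was -1.22 beside spreads of 0.13 in groin skin and 0.81 in body side skin (SD, n = 3 each), with an exact two-sided permutation p of 0.1, the smallest possible here. With A_70_P061386 in the mean the value was -1.49, which rests in part on spots not above background and is given with no test. Among all tested probes with a value on every array, 43.8% had groups that did not overlap, so the absence of overlap at the 4 probes of MMP2 and ITGB1 is not by itself unusual on these arrays.

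No difference in the size of the change was detected between MMP2 and ITGB1, in a design whose smallest p is 0.1. The mean of the 2 measured MMP2 probes minus ITGB1 was -2.94, -3.48 and -3.40 in groin skin and -2.37, -3.30 and -3.45 in body side skin. The groups overlapped, and the difference in change was 0.24 (exact two-sided permutation p = 0.6), beside spreads of 0.29 and 0.59 (SD, n = 3 each). With A_70_P061386 in the mean the sign turned, to -0.036, and no test is given for that value. These comparisons concern changes, since levels of different probes cannot be set against each other.

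**Figure D2:**
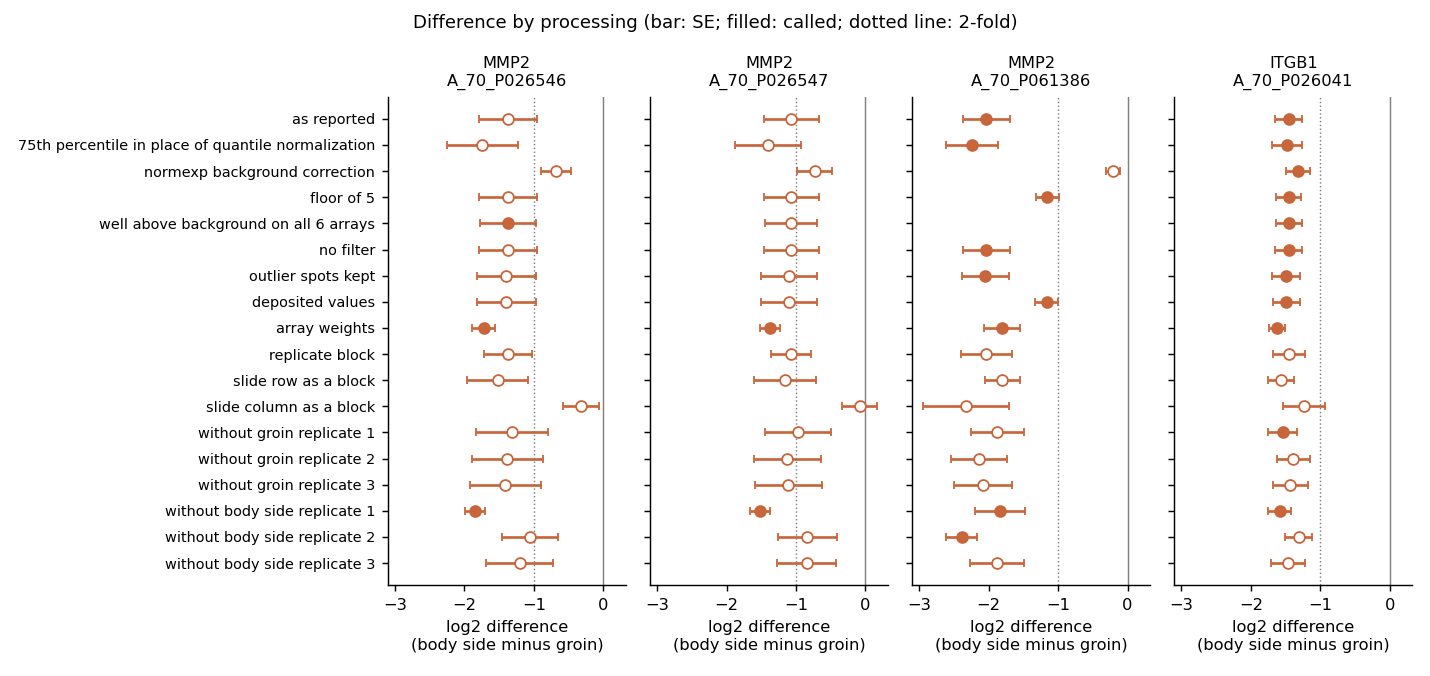
Log2 difference, body side minus groin, with SE (bars) for each MMP2 and ITGB1 probe as reported and under each alternative, with filled points where the probe was called and a dotted line at a 2-fold decrease. All differences are below 0. ITGB1 stays between -1.63 and -1.23, whereas A_70_P026547 ranges from -1.52 to -0.081 and A_70_P061386, which has no fold, from -2.39 to -0.22.

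By their spot positions the arrays lay in 3 columns and 2 rows of the layout of a slide, which does not show that they shared a slide. Groin replicates 1 and 2 were in the first column, groin replicate 3 and body side replicate 1 in the second, and body side replicates 2 and 3 in the third. Slide column and skin area therefore overlap for the most part. The only contrast within a column, groin replicate 3 against body side replicate 1, gave a log2 difference of -1.23 for ITGB1, -0.32 for A_70_P026546, -0.081 for A_70_P026547 and -2.33 for A_70_P061386. These are single arrays with no replicate. Within the first row the differences were -1.67, -2.02, -1.58 and -1.43 in the same order of probes, and within the second row they were -1.45, -1.03, -0.73 and -2.18. ITGB1 was thus about as low within the shared column and in each row as over all arrays, and the brighter MMP2 probes were much closer to the groin value within the shared column. The body side array of that column is replicate 1, which was closest to the groin mean in 62.7% of probes. The place on the slide and that array cannot be told apart. With slide row or slide column as a block, limma called none of the 4 probes (adjusted p for ITGB1 = 0.061 and 0.30), in fits that called 52 of 13920 probes with the row and 0 of 13886 with the column, where 1868 had an unadjusted p under 0.05.

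Among the other matrix proteases and their inhibitors, MMP7 fell and TIMP1 rose by less than the fold required for a call. Of 52 genes listed as such, 9 were on the array under a RefSeq name, with 14 tested probes. Of these 14, 3 were called as lower, 1 of MMP2 and 2 of MMP7, beside 4.87% of all tested probes. Limma called 0 as higher, beside 3.53% of all tested probes, with 3 higher at an unadjusted p under 0.05. Their median log2 difference was -0.35, and 0.38 without the MMP2 probes, beside 0.088 over all tested probes. MMP7, matrilysin, is a small protease made by epithelia such as glands. Its probe A_70_P016332 had signals of 3239, 5564 and 5383 in groin skin and 1245, 1328 and 1377 in body side skin, and the areas were far apart. Its log2 difference was -1.58 with SE 0.26 (limma adjusted p = 0.024), and that of A_70_P016331 was -1.02 with SE 0.19 (adjusted p = 0.028). The calls held in 10 and 7 of 17 alternatives, in the same order of probes.

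TIMP1, a secreted inhibitor of most matrix metalloproteinases, was very bright. Its probe A_70_P051412 had signals of 27702, 27434 and 27362 in groin skin and 36267, 36787 and 44028 in body side skin. The log2 differences of its 2 probes were 0.56 and 0.52 (limma adjusted p = 0.042 and 0.048), below the fold for a call but among the 14.9% of tested probes with an adjusted p under 0.05 at any fold. With outlier spots kept they were 0.43 and 0.39 (adjusted p = 0.064 and 0.076). TIMP3, an inhibitor bound to the matrix, differed by 0.47 (adjusted p = 0.27), and MMP13, a collagenase, by 0.60 (0.11). MMP14, the activator of MMP2, had 3 probes, of which 1 was above background on no array and the others on no body side array, so it gave no usable comparison here.

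PLAU, the urokinase protease that generates plasmin, and its receptor PLAUR were, like MMP2, highest on replicate 1 among the body side arrays. PLAU was at signals of 128, 135 and 129 in groin skin and 94.5, 26.3 and 27.4 in body side skin. PLAUR was at 101, 77.3 and 79.2 and at 70.6, 21.8 and 29.2. After normalization both had overlapping groups. On the normalized scale body side replicate 1 was at 0.093 for PLAU and 0.31 for PLAUR from the groin mean, and the other two body side arrays lay between -1.44 and -0.73. The log2 differences were -0.86 (limma adjusted p = 0.18) and -0.44 (0.40), and without body side replicate 1 they were -1.34 (0.0028, called) and -0.82 (0.020, not called).

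**Figure D3:**
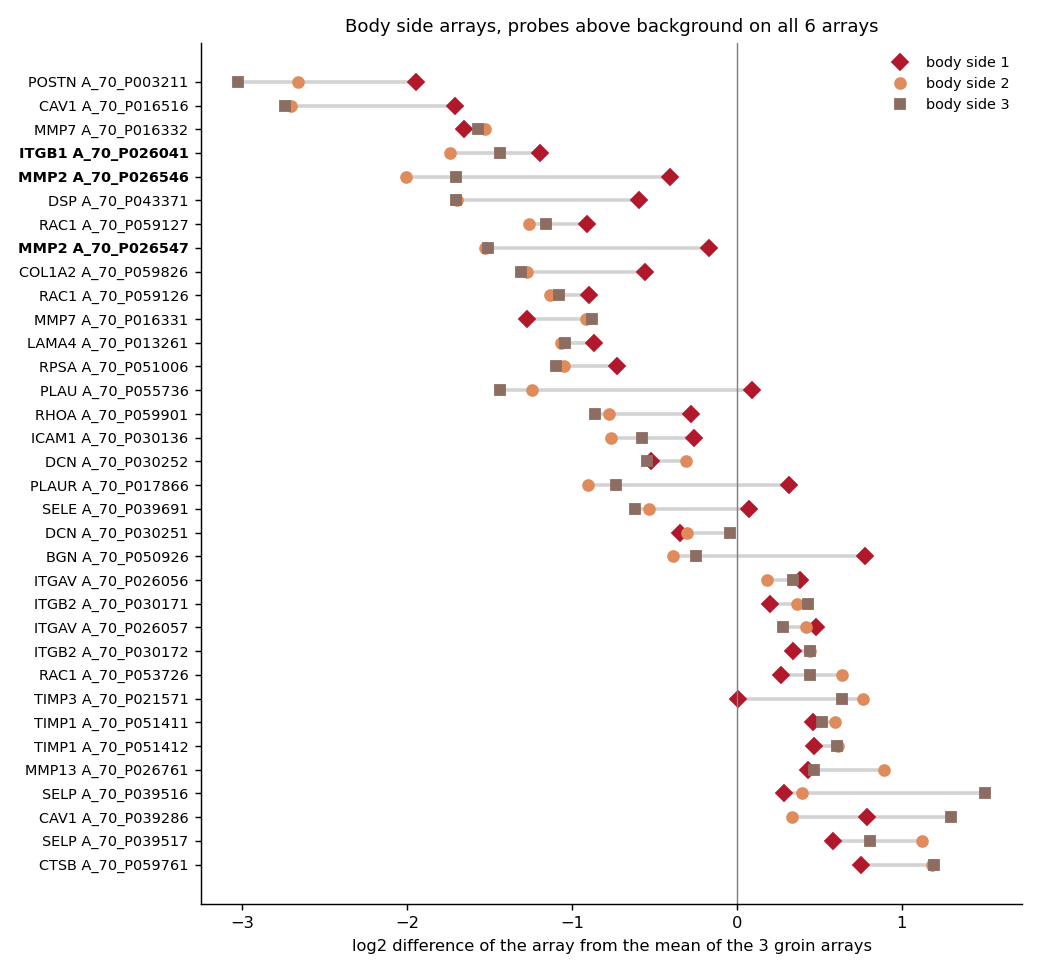
Log2 difference of each body side array from the mean of the 3 groin arrays, for the matrix and adhesion probes well above background on all 6 arrays, including those named only by the study's own list of changed probes. Replicate 1 lies closest to 0 at both MMP2 probes shown, PLAU and PLAUR, while replicates 2 and 3 lie well below, whereas the 3 arrays lie close together for ITGB1 and MMP7.

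Structural matrix genes were thinly covered by name. Of 59 listed genes, 3 were on the array under a RefSeq name, with 5 tested probes and 0 called (1 of the 5 had an unadjusted limma p under 0.05). DCN, the collagen-binding proteoglycan of the dermis and a fibroblast marker, differed by -0.23 and -0.46 at its 2 probes (adjusted p = 0.33 and 0.082), and both were above 0 after scaling by the 75th percentile. BGN, a related proteoglycan, differed by 0.049, with body side replicate 1 again the highest body side array.

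Among 72 listed integrins and other adhesion genes, 12 were on the array under a RefSeq name, with 17 tested probes, of which the ITGB1 probe alone was called, a share near the 8.4% over all tested probes. Their median log2 difference was -0.032, and 0.13 without ITGB1. ITGAV, the integrin alpha-V chain that can pair with the beta-1 chain, differed by 0.30 and 0.39 at its 2 probes (limma adjusted p = 0.41 and 0.15). ITGB2, the beta chain of leukocyte integrins, differed by 0.33 and 0.41 (0.25 and 0.22). Both stayed above 0 under every alternative run. RPSA, a ribosomal protein also known as a laminin receptor, was lower with a log2 difference of -0.96 (adjusted p = 0.027), just short of the fold for a call.

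RHOA, the small GTPase that acts on the cytoskeleton below integrins, differed by -0.64 (limma adjusted p = 0.073), and ICAM1, a ligand of leukocyte integrins, by -0.53 (0.13). SELP, the platelet and endothelial selectin, differed by 0.73 and 0.84 (0.22 and 0.14). Over the 3 lists without MMP2 and ITGB1, 32 probes of 22 genes were tested, and the median was 0.18. Groups did not overlap in 16 of them, beside 43.8% of all probes, and 2, both of MMP7, were called, beside 8.4%. Both shares are near those of all probes.

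**Figure D4:**
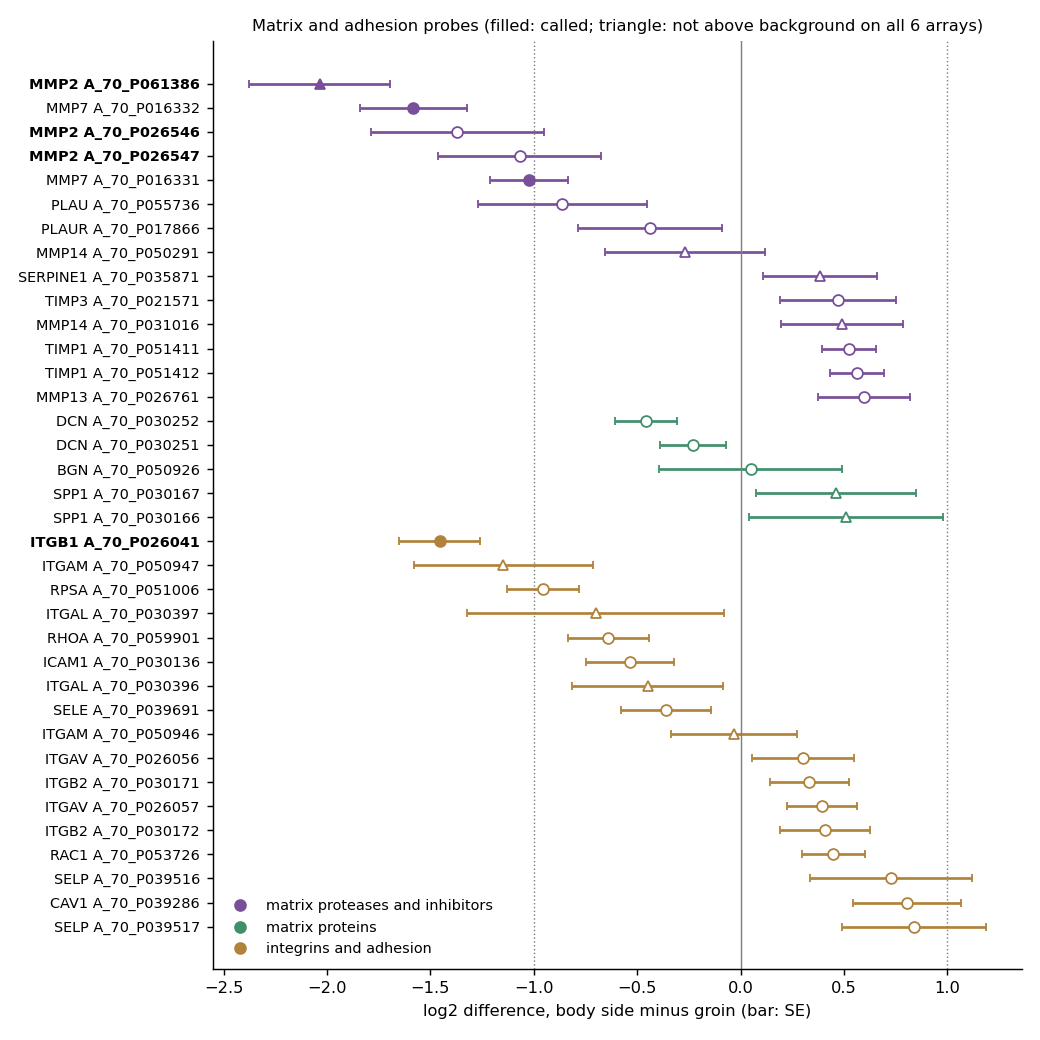
Log2 difference, body side minus groin, with SE (bars) for each tested probe of the listed matrix proteases and inhibitors, matrix proteins, and integrins and adhesion genes, with filled points for called probes and triangles for probes not well above background on all 6 arrays. MMP2, MMP7 and ITGB1 hold all called probes, and the ITGAV, ITGB2 and TIMP1 probes lie above 0.

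Further matrix and adhesion genes are named only by the study's own list of changed probes, which was drawn up on these arrays. Their direction is therefore no independent evidence, and they are given as values only. POSTN, periostin, a matrix protein of the dermis that binds integrins, had signals of 215, 614 and 587 in groin skin and 78.7, 33.7 and 30.9 in body side skin, a log2 difference of -2.54. COL1A2, a chain of type I collagen, differed by -1.05 with 60239, 42035 and 52010 against 33236, 19388 and 20944. LAMA4, a laminin chain of vessel and adipocyte basement membranes, differed by -0.99, and COL3A1 by -3.22 with only body side replicate 1 of its area well above background.

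Of the adhesion genes named in that way, DSP, a desmosome protein, differed by -1.33. CTNND1, a catenin that binds cadherins, had 0 of its 3 body side spots well above background, so no size is read from it. With normexp background correction, whose offset shrinks differences at dim probes, its log2 difference was -0.14 (limma adjusted p = 0.62). Probes of RAC1 and CAV1 disagreed within the gene. The RAC1 probes A_70_P059127 and A_70_P059126 were at -1.11 and -1.04, and A_70_P053726 was at 0.45. The CAV1 probe A_70_P016516 was at -2.38 and A_70_P039286 at 0.81. CTSB, the lysosomal protease cathepsin B, was higher by 1.04.

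The named markers of other cell types were read in the same way. Summed over probes on the linear normalized scale, the fibroblast list (DCN alone of 7 genes) was at 159096 to 181739 in body side skin and 200404 to 232827 on the groin arrays. The smooth muscle list, of which CNN1 alone of 5 genes was named, was at 4506 to 7674 and 12414 to 15103, and CNN1 was called as lower. DCN was not called. COL1A2, COL3A1 and POSTN are also on the fibroblast list but are named only by the study's own list of changed probes. They are not in the sum and differed by -1.05, -3.22 and -2.54, as given above. No size is read from the COL3A1 value, since only body side replicate 1 of its area was well above background. The wool follicle list (4 of 15 genes) was at 379067 to 422580 and 348421 to 392516, so the areas overlapped. That sum rests mostly on the bright KRT25 and KRT27 probes, so the overlap says little about the other genes of the list. Of the 7 tested probes of the list, the 2 of the follicle keratin K38 were called as higher by 2.14 and 3.06. The others were not called, at 0.11 and -0.042 for KRT25, 0.14 for KRT27, and 0.87 and 0.83 for PADI3.

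The adipocyte list (3 of 6 genes) was at 4861 to 10031 in body side skin and 7490 to 14442 on the groin arrays, the immune list (3 of 7) at 2338 to 2814 and 2177 to 2295, and the erythrocyte gene HBB at 136 to 285 and 27.8 to 92.7. The adipocyte sums overlapped and rest mostly on PPARG, which differed by -0.52 (limma adjusted p = 0.34), while no PLIN1 probe could be tested. The LPL probe A_70_P029921 was called as lower, but 0 of its body side spots were well above background. With normexp background correction, whose offset shrinks differences at dim probes, it was at -0.22 (limma adjusted p = 0.19). No immune probe was called by limma, with 1 of CD3E at an unadjusted p under 0.05, and HBB was called as higher. No gene of the basal keratinocyte, suprabasal keratinocyte or endothelial lists could be named, so the cells in which ITGB1 is best known could not be followed. The part of these cell types in the MMP2 and ITGB1 differences was not tested.

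The genes closest to ITGB1 in their pattern over the 6 arrays, among 361 named genes well above background on all of them, were IL1A (Pearson's r 0.99), RPA1 (0.98), TRPM7 (0.98), CREM (0.98) and RPSA (0.97). All 5 were lower in body side skin, from -2.20 for TRPM7 to -0.59 for CREM. The closest to the mean of the 2 measured MMP2 probes were BCL2L1 (0.998), PI3 (0.996), CD247 (0.995), BCKDHA (0.99) and ASIP (0.99), with log2 differences from -1.61 for PI3 to -0.57 for CD247, none of them called. ITGB1 had an r of 0.87 with that mean. With A_70_P061386 in the mean the first 5 were other genes, DBP, FHL1, ARFIP2, ACLY and STAT5A, so the list depends on the dim probe. An r over 0.9 was found for 32 genes with ITGB1 and 49 with the MMP2 pair, and all such r share the arrays and the difference between the areas.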

How the data were processed

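The authors extracted the 6 one-colour images with Agilent Feature Extraction 10.5.1.1, per the labels, and deposited scanner files whose processed signal intensity is background corrected per spot, together with a table of their normalized log2 values. The genome build is not given in the sources used here, and the scanner files hold no probe sequences, so none are shown. Their methods state a separate slide for each RNA sample, whereas each array has its own place in the layout of a slide. Positions alone cannot show whether the arrays shared a slide, and this is not resolved here.

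From the processed intensities, control and outlier spots were left out, log2 values of a probe's spots were averaged, and arrays were quantile normalized. Tests used limma 3.58.1 in R 4.3.3 on probes that 1 or more arrays measured well above background (area as the only term, Benjamini-Hochberg adjustment over 13929 probes). Single values were tested with exact permutation over arrays. The script was tested on simulated data. A probe dim on every array of an area has only a bound: the mean of the brighter area is set against dim-area values raised, on each array, to the lowest level at which any probe was well above background. Such a bound holds only under the background correction used. The number of arrays limits the precision. Probes were named by accession through RefSeq (assembly ARS-UI_Ramb_v3.0, 734 of 15008 probes), and no coordinates are given.

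MMP2, ITGB1 and the gene lists were chosen with earlier results of these data known. Named were all probes of both genes, list genes with a called probe, other proteases, inhibitors, collagens and integrins measured on all arrays, genes only the study's list names, and the 5 genes most like each of them. The likeness to the 2 measured MMP2 probes was added after seeing the data. RPSA, RHOA, ICAM1, SELP, PLAUR, DCN and BGN were added after their values were seen. Alternatives varied the scaling, background correction, floor, filters, weights, blocks, deposited values and each array left out. Normexp background correction used an offset of 50.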

Additional observations from a re-analysis of the deposited data

How the results depend on the processing

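All differences of the 4 probes stayed below 0 under every alternative run, and the ITGB1 call held in 10 of 17 alternatives and that of A_70_P061386 in 8 of 16. Values below that include A_70_P061386 in a mean or a pair rest in part on spots not above background. Scaling by the 75th percentile moved the median of all tested probes from 0.088 to -0.029 and the share of calls that were lower from 58.0% to 75.9%; relative to that median ITGB1 was at -1.54 and -1.45, A_70_P026546 at -1.46 and -1.71, A_70_P026547 at -1.16 and -1.38, and A_70_P061386 at -2.12 and -2.21. With it the adhesion median was -0.49 and 1 other list probe was called. With normexp, 451 probes were called in all and 1 other list probe, A_70_P061386 was not called at -0.22, the probe pairs differed by 0.051, -0.46 and -0.52 in their change, and the 3-probe MMP2 mean was at -0.54, differing from ITGB1 by 0.78. Its offset of 50 shrinks differences more at dim probes than at bright ones, so these values depend on probe brightness too. With a floor of 5 and with the deposited values, A_70_P026546 minus A_70_P061386 was -0.22 and -0.23, and MMP2 minus ITGB1 was 0.26 and 0.27, as with only the 2 measured MMP2 probes (0.24). Requiring all 6 arrays above background called A_70_P026546 at -1.37 (limma adjusted p = 0.048) and gave an adhesion median of 0.33, and no filter gave 0.12. Array weights called 3338 probes, 5 other list probes, A_70_P026546 at -1.72 and A_70_P026547 at -1.38.

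With slide row as a block 52 probes were called, A_70_P061386 (-1.80) and ITGB1 (-1.56) were not, and 0 other list probes were. With slide column as a block limma called 0 probes, though 1868 had an unadjusted p under 0.05; A_70_P061386 was at -2.33, ITGB1 at -1.23, the protease median at 0.13, and 0 other list probes were called. With replicate number as a replicate block 8 probes were called, A_70_P061386 (-2.03, adjusted p = 0.059) and ITGB1 (-1.45, 0.057) were not, and 0 other list probes were; the MMP2 mean kept its value (exact sign-flip p = 0.25, the smallest possible). No label ties the number to an animal, and same-numbered arrays correlated at 0.13, 0.073 and 0.057, while groin replicate 3 and body side replicate 2 correlated at 0.13.

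With each array left out in turn, the calls in all ranged from 11 (without groin replicate 3) to 2959 (without body side replicate 1), ITGB1 from -1.59 to -1.31, A_70_P026546 from -1.85 to -1.05, A_70_P026547 from -1.52 to -0.84, A_70_P061386 from -2.39 to -1.83, MMP2 minus ITGB1 from -0.16 to 0.16, the adhesion median from -0.19 to 0.23, and the other list probes called from 0 to 4. A_70_P026546 minus A_70_P061386 ranged from -0.021 to 1.34.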
